A study of Rattus norvegicus with 9 samples.

Results

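The first transcripts to change when electrical activity returns to silenced rat cortical neurons were followed here in the 6 arrays, of 9 in the series, that compare neurons in tetrodotoxin (TTX) with neurons collected 15 min after its washout. The test covered all genes above background, but many of the genes named below were chosen by their response. Of 35523 genes or transcript features without a filter, 25786 stood above background in at least 1 group. Of these, 12284 carried a gene symbol. A gene below background in TTX could pass this filter through a group where it was higher, as Npas4 did. TTX blocks voltage-gated sodium channels and with them action potentials. Both groups had been kept in TTX for 48 h; the 15 min group (W15) then had 3 changes of regular medium. The cells were dissociated from cortices of prenatal rat pups, grown in Neurobasal with B27 or NS21, and used on days 11 to 15 in culture; the labels call them mature neurons. Each group has 3 arrays of total RNA labelled with Cy3, and the 3 arrays at 45 min (W45) also enter the fit, where they help to estimate the spread. The strain is not given in the sources used here, nor whether the arrays of a group are separate cultures, so p-values measure only the spread between these samples, which may be technical. No sample used here was washed with TTX kept in the medium, so the return of activity and the medium change cannot be told apart.

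Immediate early genes are transcribed within minutes of a stimulus from factors already present in the cell, without new protein synthesis. In neurons calcium entry and the ERK kinases act on CREB, SRF with its ternary complex partners, and MEF2, which are bound at these genes before the stimulus. Many of the products are themselves transcription factors (Fos, Jun, Egr, Nr4a and Npas4 families), and others act at synapses or damp the signal, such as Arc and the MAP kinase phosphatases. The study's title concerns RNA polymerase II poised at Arc and other rapidly induced genes of this class; the comparison at 15 min asks which transcripts are up by then.

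The neuron markers matched the label. All 14 neuron markers were measured, and their summed signal ran from 408 to 491 in TTX and from 443 to 484 at 15 min, in multiples of the array's 75th percentile. Astrocyte markers were also present, with all 11 measured and a summed signal of 221 to 251 in TTX and 248 to 270 at 15 min. Of the neuron markers 3 (21.4%; Map2, Rbfox3 and Elavl4) were higher and none lower on every W15 array than on every TTX array. Of the astrocyte markers 3 (27.3%; Fabp7, Aldoc and Slc1a2) were higher and 1 (9.09%; Glul) lower in that way, beside 10.1% higher and 3.66% lower over all genes. Without scaling between arrays these counts were 0 higher and 1 lower for neuron markers and 0 and 3 for astrocyte markers. Over all genes the shares were then 0.667% higher and 12.1% lower. With normexp background correction the counts were 4 and 0, and 1 and 1, beside 11.3% and 3.40% of all genes. With quantile scaling they were 2 and 0, and 1 and 1, beside 7.97% and 5.59%. The 9 measured microglial markers summed to 0.441 to 0.504 in TTX and 0.465 to 0.489 at 15 min, and the 4 endothelial and pericyte markers to 0.727 to 0.906 and 0.682 to 0.735. Markers listed for proliferating progenitors (9 measured) summed to 100 to 110 in TTX and 112 to 129 at 15 min. That list includes Dcx and Nes, which are not limited to dividing cells, so its sum does not measure a share of progenitors. Those of the oligodendrocyte lineage (11) summed to 49.9 to 57.5 and 51.1 to 58.7. Fibroblast and meningeal markers (8) summed to 12.8 to 15.7 and 11.3 to 17.4. The part of other cells in the differences below was not tested; in bulk RNA, fewer cells of a type and less RNA per cell cannot be told apart. The arrays had 73.3 to 77.9% of probes well above background. TTX replicate 1 shared a slide with W15 replicate 3 (slide 1); TTX replicates 2 and 3 were on slide 2, and W15 replicates 1 and 2 on slide 3, so most of the comparison cannot be told apart from the slide, and slide 1 alone gives 1 array per group.

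Of the immediate early genes with every W15 array above every TTX array, 19 had a promoter sequence available, Egr1 among them. The promoters of 6 of these genes are shown first. They are the 250 bases before the start of the gene in RefSeq (GRCr8), 5′ to 3′ on the gene's strand. Capitals mark matches, on either strand, to the cAMP response element TGACGTCA (CRE), its core TGACG (which lies within the full element), the core promoter letters TATAAA and the CArG box, the core of the serum response element. The windows lie at chr1:211716103-211716352 (minus strand) for Npas4, chr19:40080876-40081125 (plus strand) for Junb, chr4:119607818-119608067 (minus strand) for Egr4, chr17:13530352-13530601 (minus strand) for Gadd45g, chr20:21054442-21054691 (minus strand) for Egr2 and chr19:40399123-40399372 (plus strand) for Ier2.
Npas4: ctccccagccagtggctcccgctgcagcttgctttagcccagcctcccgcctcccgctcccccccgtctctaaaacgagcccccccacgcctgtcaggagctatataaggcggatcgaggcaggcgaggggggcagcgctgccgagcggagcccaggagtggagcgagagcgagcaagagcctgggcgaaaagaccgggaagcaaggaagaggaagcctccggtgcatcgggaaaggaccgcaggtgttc
Junb: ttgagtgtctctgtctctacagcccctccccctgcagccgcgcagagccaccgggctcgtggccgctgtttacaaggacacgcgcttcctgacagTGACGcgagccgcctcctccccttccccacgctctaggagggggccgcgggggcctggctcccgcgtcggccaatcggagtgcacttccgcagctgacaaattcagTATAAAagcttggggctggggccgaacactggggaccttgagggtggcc
Egr4: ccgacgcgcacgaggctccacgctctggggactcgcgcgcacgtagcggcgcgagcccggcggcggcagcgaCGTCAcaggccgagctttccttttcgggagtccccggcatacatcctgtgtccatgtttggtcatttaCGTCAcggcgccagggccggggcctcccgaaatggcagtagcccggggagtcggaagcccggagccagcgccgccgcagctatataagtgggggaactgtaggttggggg
Gadd45g: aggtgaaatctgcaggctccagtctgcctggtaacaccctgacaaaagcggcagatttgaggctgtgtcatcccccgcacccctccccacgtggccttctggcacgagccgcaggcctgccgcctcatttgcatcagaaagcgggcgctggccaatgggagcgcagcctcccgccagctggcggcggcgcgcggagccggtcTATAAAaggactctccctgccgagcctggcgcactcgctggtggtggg
Egr2: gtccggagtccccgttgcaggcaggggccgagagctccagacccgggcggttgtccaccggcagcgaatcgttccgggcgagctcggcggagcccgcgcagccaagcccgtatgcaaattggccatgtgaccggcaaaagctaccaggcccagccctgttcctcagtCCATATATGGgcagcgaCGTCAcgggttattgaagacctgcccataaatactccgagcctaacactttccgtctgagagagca
Ier2: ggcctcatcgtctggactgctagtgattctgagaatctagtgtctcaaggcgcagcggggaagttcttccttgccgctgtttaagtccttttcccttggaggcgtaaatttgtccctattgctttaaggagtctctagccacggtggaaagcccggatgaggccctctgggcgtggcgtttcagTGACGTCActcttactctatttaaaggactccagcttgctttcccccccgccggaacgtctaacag
Ier2 has the full CRE, Egr2 a CArG box and a CRE core, Egr4 a pair of CRE cores, Junb a CRE core and a TATAAA, and Gadd45g a TATAAA. None of these letters occur in the Npas4 window. Over 27457 RefSeq promoter windows of this length, 1.70% held the full CRE, 19.0% the core, 13.1% TATAAA and 1.5% a CArG box. Of the 27 immediate early transcription factors with a window, 14 held the CRE core, 7 TATAAA, 4 a CArG box (Egr1, Egr2, Klf6 and Srf) and 2 the full CRE (Ier2 and Maff). Among the 5 called genes with a window, 3 held the CRE core, 2 TATAAA, 1 a CArG box and 0 the full CRE. A match describes the sequence and does not show a site in use.

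At 15 min, 6 genes had risen and none had fallen by the test over all genes (limma, Benjamini-Hochberg adjusted p under 0.05). They were Npas4, Fos, Junb, Egr1, Egr4 and Gadd45g, which is 0.0233% of the 25786 genes and features; 0% were called lower. All 6 are on the immediate early lists, 5 of them among the transcription factors. Without adjustment, 642 (2.49%) had p under 0.05 in the higher direction and 235 (0.911%) in the lower. The median difference of all genes was 0.05 on the log2 scale. With slide as a fixed block limma called 0 genes in either direction (364 higher and 485 lower at an unadjusted p under 0.05). In that fit the adjusted p of Fos, Egr1 and Egr4 was 0.135, that of Npas4 0.139, that of Junb 0.466 and that of Gadd45g 0.697. The log2 differences there were 5.16 for Fos, 5.51 for Npas4, 3.21 for Junb, 2.29 for Egr1, 2.20 for Egr4 and 1.24 for Gadd45g. With slide as a random block limma called the same 6 genes.

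**Figure D1:**
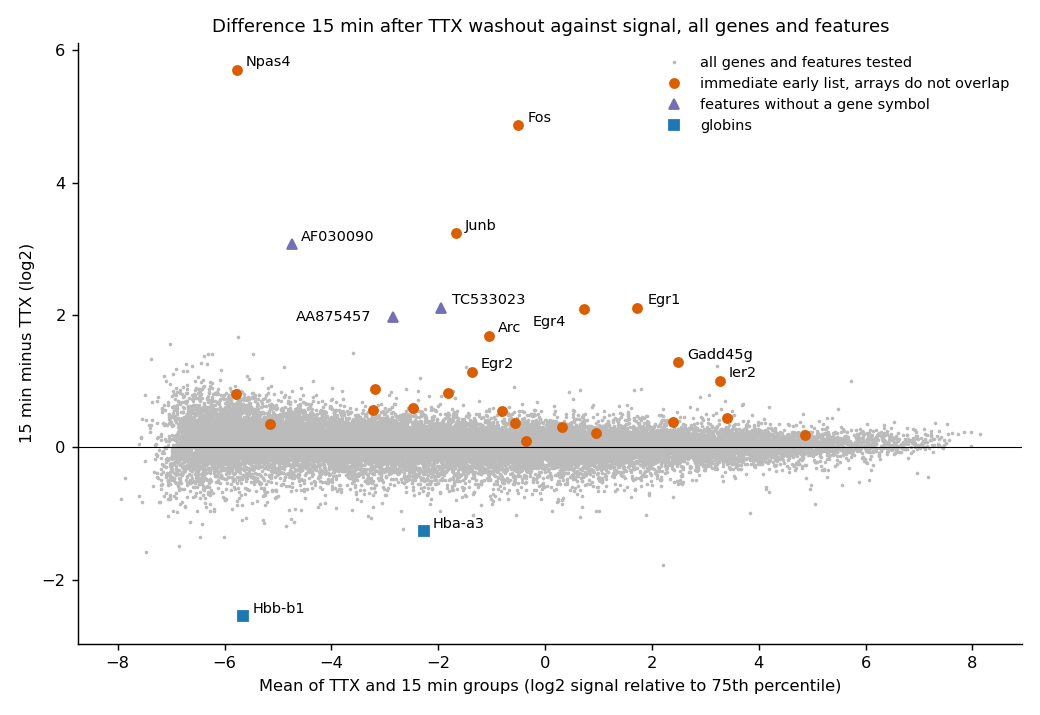
Difference between W15 and TTX (log2, vertical axis) against the mean signal of both groups (log2 relative to the array's 75th percentile, horizontal axis) for all 25786 genes and features, each a grey point. Orange points are immediate early genes whose arrays do not overlap, purple triangles 3 features without a gene symbol, and blue squares the globins Hba-a3 and Hbb-b1. Fos and Junb lie at 4.87 and 3.23; Npas4 is plotted at its fitted 5.70, which rests on a TTX signal below background.

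Npas4, a neuronal bHLH-PAS factor that responds to calcium entry, rose from below background. Its signal in TTX was not well above background on any of 3 arrays (-8.68, -8.45 and -8.73 on the log2 scale relative to the 75th percentile), and it was detected on all 3 at 15 min (-3.18, -1.86 and -3.71). The lowest W15 array lay 4.75 above the highest TTX array. Set against the lowest signal flagged well above background on each TTX array, the rise was 19.7-fold. This figure holds for the 75th percentile scaling and is not a lower bound under other background corrections. The fitted log2 difference was 5.70 ± 0.40 (SE, limma adjusted p = 0.0016). That value depends on how the dim TTX signal was treated: after normexp background correction it was 2.55, and Npas4 was not called (adjusted p = 0.195). At 45 min the arrays read 0.71, 0.46 and 0.12. The probe lies at chr1:207752362-207752421 (rn3, minus strand).

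Fos, the AP-1 subunit most used as a marker of active neurons, read -3.16, -3.02 and -2.63 in TTX and 1.48, 2.62 and 1.71 at 15 min. The groups were far apart, and the rise was 29.2-fold (log2 4.87 ± 0.33, SE, adjusted p = 0.0016). Junb, another AP-1 subunit, read -3.15, -3.32 and -3.42 in TTX and -0.37, 0.26 and -0.07 at 15 min, a 9.41-fold rise (log2 3.23 ± 0.30, adjusted p = 0.0071). The other AP-1 genes had smaller differences and did not pass the test. Fosl2 differed by 0.59 ± 0.23, Fosb by 0.56 ± 0.20 and Jun by 0.45 ± 0.18 (log2 ± SE, adjusted p = 0.997 for each), with all W15 arrays above all TTX arrays except without scaling, where these 3 overlapped; Fosl1 differed by 0.10 and overlapped. For Jun the W15 arrays read 3.59, 3.72 and 3.60 against 2.92, 3.28 and 3.36 in TTX. The probes of Fos and Junb lie at chr6:109564555-109564614 and chr19:24837607-24837666 (rn3, plus strand).

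The 4 Egr genes, which encode zinc finger factors, were higher on every W15 array than on every TTX array (Egr3 not without scaling between arrays), and Egr1 and Egr4 passed the test. Egr1 read 0.38, 0.66 and 0.94 in TTX and 2.65, 3.02 and 2.64 at 15 min, a 4.31-fold rise (log2 2.11 ± 0.18, adjusted p = 0.0067). Egr4 read -0.19, -0.30 and -0.46 in TTX and 1.73, 1.73 and 1.83 at 15 min, a 4.24-fold rise (log2 2.08 ± 0.18, adjusted p = 0.0067), with the W15 arrays closer to each other than the TTX arrays. Egr2 read -2.12, -1.91 and -1.80 in TTX and -0.96, -0.74 and -0.70 at 15 min; its difference of 1.14 ± 0.16 had an adjusted p of 0.177. Egr3 was dim, from -6.38 to -5.86 in TTX and from -5.57 to -5.21 at 15 min, and differed by 0.80 ± 0.19 (adjusted p = 0.997).

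Gadd45g, of a family of small stress-inducible nuclear proteins linked to DNA demethylation and p38 signalling, rose 2.43-fold. Its arrays read 1.89, 1.85 and 1.80 in TTX and 2.94, 3.29 and 3.15 at 15 min (log2 1.28 ± 0.12, adjusted p = 0.0104). With the replicate number as a block the adjusted p of Gadd45g was 0.0628, so its call was lost, while the other 5 genes kept theirs. Its relative Gadd45b read -2.39, -2.13 and -2.18 in TTX and -1.60, -1.0 and -1.62 at 15 min, a difference of 0.82 ± 0.24 that did not pass the test (adjusted p = 0.997) and overlapped without scaling; Gadd45a differed by -0.11 and overlapped.

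Arc, a synaptic protein that forms capsid-like particles and regulates AMPA receptor trafficking, was 3.22-fold higher and did not pass the test. It read -2.03, -1.87 and -1.80 in TTX and -0.70, 0.18 and -0.12 at 15 min, so the groups were separated by 1.10. The difference was 1.69 ± 0.24 (log2 ± SE, adjusted p = 0.177), and at 45 min the arrays read 3.67, 3.57 and 3.03. Ier2, a nuclear protein of the immediate early response, read 2.68, 2.80 and 2.81 in TTX and 3.68, 3.89 and 3.73 at 15 min, a difference of 1.01 ± 0.16 (adjusted p = 0.248). Arc, Egr2 and Ier2 were called when the spread was fitted with a trend and robustly (adjusted p = 0.0462, 0.0471 and 0.0462), and in none of the other alternatives.

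**Figure D2:**
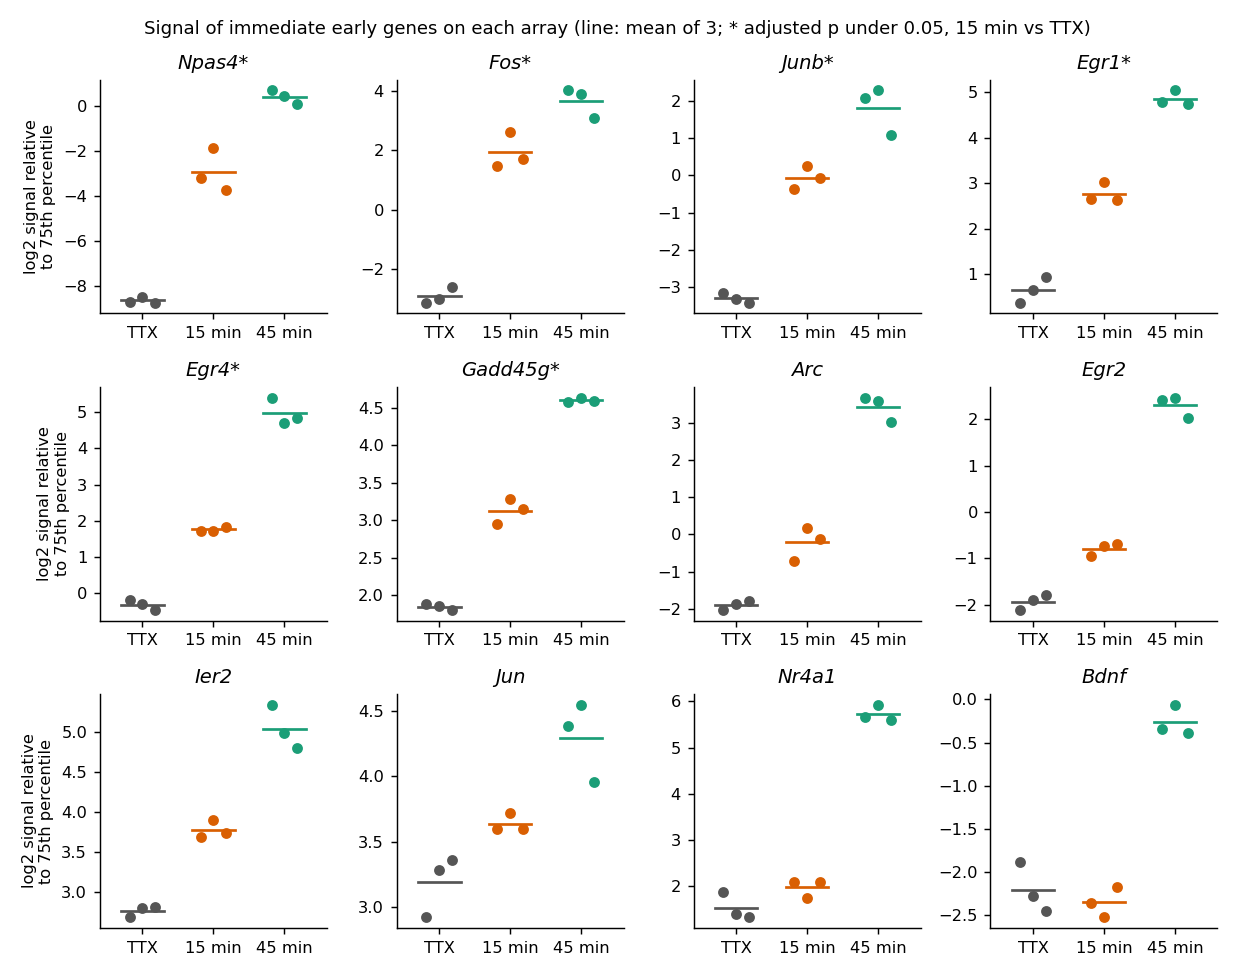
Signal on each array (log2 relative to the array's 75th percentile, vertical axis) for 12 immediate early or activity genes in TTX, 15 min and 45 min after washout; points are arrays, lines the mean of 3, and an asterisk marks an adjusted p under 0.05 for 15 min against TTX. The 6 called genes and Arc, Egr2, Ier2 and Jun have all W15 arrays above all TTX arrays, whereas Nr4a1 and Bdnf overlap.

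Other genes known to respond to activity did not pass the test at 15 min, some of them with overlapping arrays. Nr4a1, an orphan nuclear receptor, read 1.87, 1.39 and 1.32 in TTX and 2.09, 1.75 and 2.09 at 15 min, which overlap (0.45 ± 0.18, adjusted p = 0.997); at 45 min it read 5.67, 5.93 and 5.60. Dusp1, which dephosphorylates MAP kinases, differed by 0.36 ± 0.15, and Ccn1, a secreted matrix protein, by 0.88 ± 0.24 (1.03 at a second probe), both without overlap (Dusp1 not without scaling) and with an adjusted p of 0.997. On slide 1 alone Ccn1 differed by 0.29. Bdnf, the neurotrophin, read -1.88, -2.27 and -2.45 in TTX and -2.36, -2.52 and -2.17 at 15 min, a difference of -0.15 ± 0.18, and -0.34, -0.06 and -0.39 at 45 min. The probes named Homer1, a postsynaptic scaffold, differed by -0.01 and -0.06.

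Of the 36 measured transcription factors on the immediate early list (37 listed), 5 were called higher, 12 had all W15 arrays above all TTX arrays, and none had all below. Their median difference was 0.15, with 28 positive. Of 39 other immediate early genes measured (42 listed), 1 was called, 11 were separated upward and 1 downward, with a median of 0.10 and 27 positive. Over all genes, 10.1% had all W15 arrays above all TTX arrays and 3.66% all below, so 23 of the 75 genes on both lists together (30.7%) stand beside a background of 10.1%. Rasl11a, a small GTPase, differed by 0.55 ± 0.18 and Ch25h, which makes 25-hydroxycholesterol, by 0.35 ± 0.14; both were separated and neither passed the test. Without scaling both overlapped, and so did Rasl11a after normexp correction and Ch25h with quantile scaling. Plk2, a polo-like kinase with roles in synaptic homeostasis, was the gene separated downward, with 1.94, 1.69 and 1.63 in TTX and 1.5, 1.34 and 1.60 at 15 min, a gap of 0.03.

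**Figure D3:**
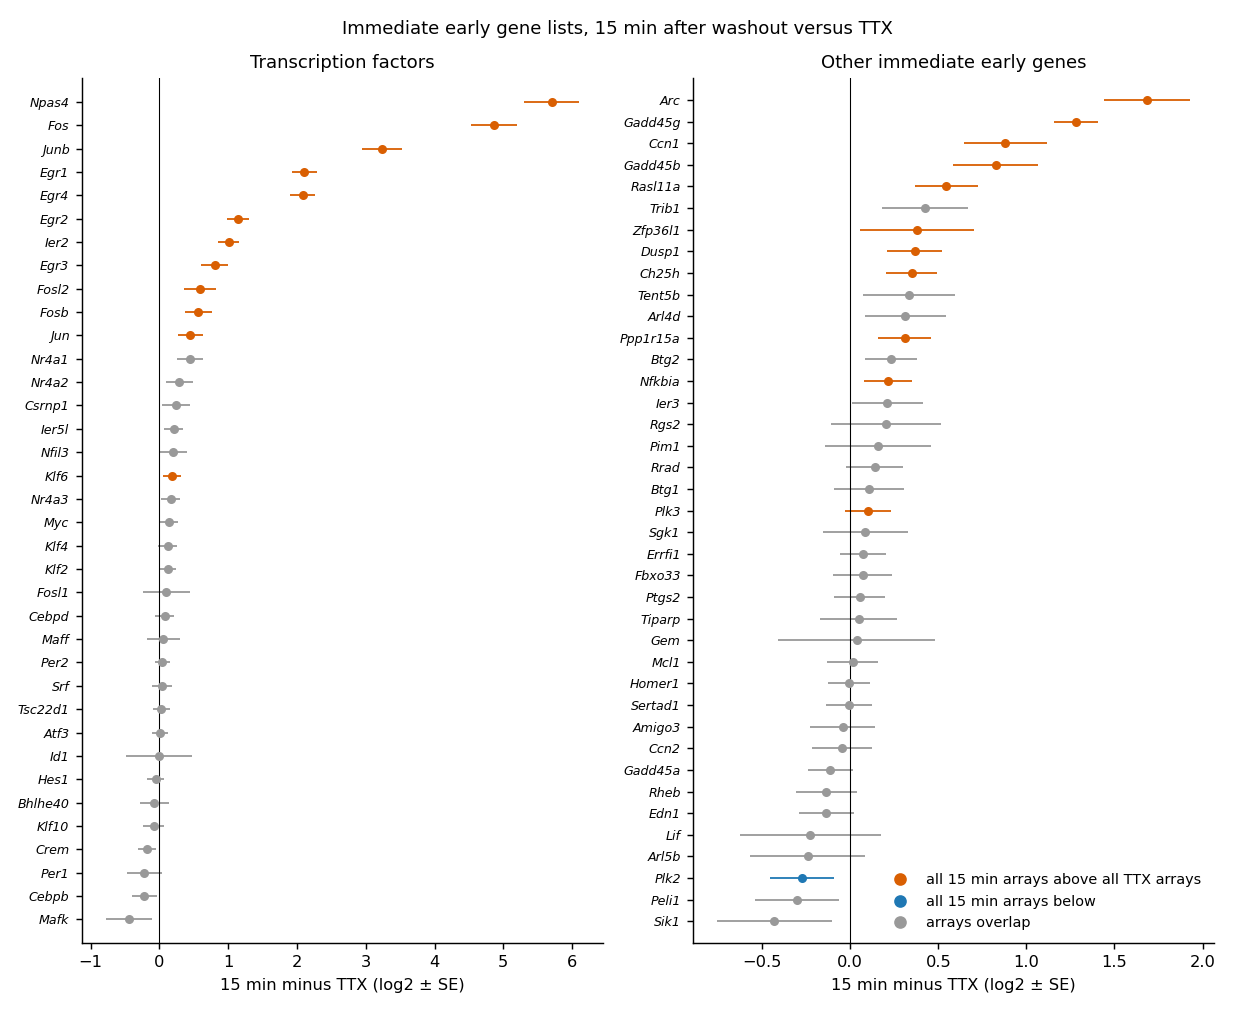
Difference between W15 and TTX (log2 ± SE, horizontal axis) for each measured gene of the immediate early lists, with transcription factors on the left and other genes on the right. Orange marks genes whose W15 arrays all lie above the TTX arrays (12 and 11), blue the 1 gene with all below (Plk2), and grey overlap; most grey genes lie near 0.

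Full separation by itself was common and depended on the scaling of the arrays. With the 75th percentile, 2603 genes and features had all W15 arrays above and 943 all below the TTX arrays, together 13.8% of those tested. With the signals as deposited, without scaling between arrays, the counts were 172 and 3119, and the median difference of all genes was -0.15. With quantile scaling they were 2056 and 1441 (median 0.02), and with normexp background correction 2912 and 876 (median 0.21). The 6 called genes were separated upward under each of these 3 alternatives. On the immediate early lists 23 genes were separated upward and 1 downward with the 75th percentile, 22 and 1 with quantile scaling, 31 and 2 with normexp, and 10 and 8 without scaling.

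**Figure D4:**
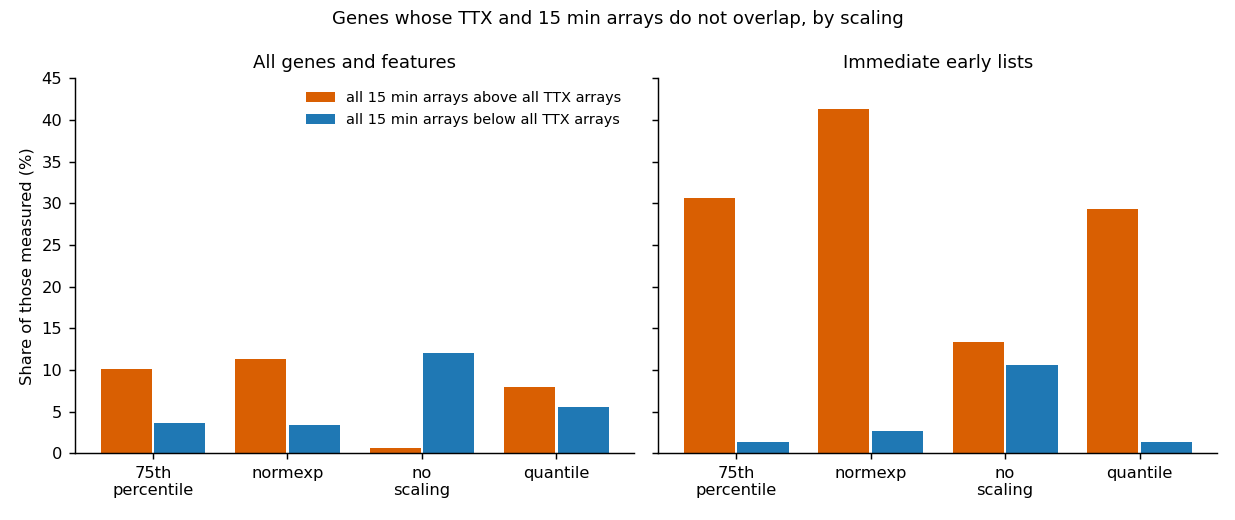
Share of genes (%, vertical axis) whose W15 arrays all lie above (orange) or all below (blue) the TTX arrays, for the 75th percentile scaling and 3 alternatives, over all genes and features (left) and the immediate early lists (right). Among all genes the higher share is 10.1% with the 75th percentile and 0.667% without scaling; on the lists it is 30.7% and 13.3%.

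Few separated genes differed by at least 2-fold: 35 were higher (0.136% of all tested) and 11 lower (0.0427%). Of the 35, 9 were on the immediate early lists. Counting genes detected on all 6 arrays, 17 remained: 8 immediate early genes and 9 features without a symbol. No gene with a symbol outside the lists was among these 17. The 3 features without a symbol and with the widest gap are described next.

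AF030090 is listed in the files as ania-5, activity and neurotransmitter-induced early gene 5. It read -6.16, -6.18 and -6.51 in TTX and -3.26, -3.17 and -3.20 at 15 min, an 8.39-fold difference (log2 3.07 ± 0.41, adjusted p = 0.127). The gap of 2.90 between the groups came with W45 arrays at -4.42, -3.79 and -2.41, and this spread enters the test. With only the 6 arrays the feature was called, and likewise without W45 replicate 1, without W45 replicate 3, without scaling and with the trended, robust spread. These were 5 of 21 alternatives. It was not called with the replicate block (limma adjusted p = 0.546) or with slide as a fixed block. Its probe lies at chr2:23505728-23505787 (rn3, plus strand), 164.1 kb from the probe of Tent2; in the RefSeq gene order of GRCr8 the protein-coding genes next to each other there are Tent2, Homer1 and Jmy. A pair of further ania features lies downstream on the same strand and was looked up after the values were seen. AF050660 (ania-8), 3.24 kb on, read -2.44, -2.78 and -2.46 in TTX and -1.99, -1.62 and -1.78 at 15 min (0.77 ± 0.15, adjusted p = 0.997; its groups overlapped without scaling). AF050659 (ania-7), 36.62 kb on, differed by -0.03 ± 0.43 with overlapping arrays, and read -1.39, -0.22 and 0.77 at 45 min. At 15 min the log2 difference was thus largest at the first of the 3 probes along the strand and near 0 at the last. The probes differ in level, with TTX means of -6.28, -2.56 and -2.13. Log2 differences therefore do not rank the amount of added signal, and an order along the strand was not tested.

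TC533023 and AA875457 are neighbours on chromosome 15, with probes at chr15:105373297-105373356 (plus strand) and chr15:105372665-105372724 (minus strand, rn3), 0.63 kb apart. TC533023 read -2.83, -3.27 and -2.90 in TTX and -0.78, -0.74 and -1.17 at 15 min (2.10 ± 0.45, 4.30-fold, adjusted p = 0.997). AA875457 read -3.70, -3.98 and -3.79 in TTX and -1.92, -1.55 and -2.11 at 15 min (1.97 ± 0.46, 3.91-fold, adjusted p = 0.997). Both were called with only the 6 arrays, and AA875457 also without W45 replicate 3, which is 1 and 2 of 21 alternatives. The W45 arrays read -2.88, -1.90 and -0.69 for TC533023 and -3.28, -3.08 and -1.20 for AA875457. AF030090, AF050659 and the 3 features without a symbol named below as lower also rose from W45 replicate 1 to replicate 3. AF050660 did not. What these features share on the W45 arrays was not tested. The nearest probes with a symbol were Oxgr1, 267.0 kb away, and Rap2a, and the RefSeq gene order of GRCr8 places Mbnl2 between these genes. Rap2a, a Ras-like GTPase whose probe lies 212.65 kb from TC533023, differed by 0.48 ± 0.18 (0.52 at a second probe) and was separated, though not without scaling.

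Genes with a symbol outside the immediate early lists that were detected on all 6 arrays had modest differences, and none passed the test. The 12 with the widest gap upward were Mrgprd, Kbtbd11, Plekha5, Zfp319, Tdrd6, Bcl2, Dusp8, Slk, Atp2a3, Eid2b, Rap2a and Pcdh12, with gaps from 0.63 (Mrgprd) down to 0.37 (Pcdh12). Mrgprd, a sensory neuron receptor of the Mas-related family, read -2.73, -2.83 and -2.82 in TTX and -2.10, -1.87 and -1.87 at 15 min (0.85 ± 0.17, adjusted p = 0.997). Dusp8, a MAP kinase phosphatase that acts on JNK and p38, read 2.77, 2.67 and 2.59 in TTX and 3.22, 3.69 and 3.50 at 15 min (0.79 ± 0.21). Eid2b, a relative of inhibitors of differentiation, read 0.12, 0.23 and -0.26 against 0.61, 1.11 and 0.86 (0.83 ± 0.21). These 3 stayed separated upward under all 3 scaling alternatives; the other 9 overlapped under at least 1. Kbtbd11, a Kelch and BTB domain protein, had the smallest adjusted p of the 12, 0.606 (0.72 ± 0.13). Bcl2, an inhibitor of apoptosis, differed by 0.69 at one probe and 0.34 at another, whose groups overlapped. For Plekha5, 0.66 at the probe used stood beside 0.14 and 0.29 at the 2 other probes, which overlapped.

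The 12 with the widest gap downward were Hba-a3, Ctnna2, Sh3rf1, Jrkl, Gabra3, Nabp1, Myog, Erlin1, Pcmtd2, Shtn1, Fam219b and Gmfb, with gaps from 0.50 (Hba-a3) to 0.26 (Gmfb), each with an adjusted p of 0.997. Ctnna2, an alpha-catenin of neurons that links cadherins to actin, read -0.52, -0.44 and -0.51 in TTX and -1.29, -1.19 and -0.97 at 15 min (-0.66 ± 0.15), and -0.68, -0.38 and -0.20 at 45 min. Gmfb, glia maturation factor beta, read 0.59, 0.38 and 0.00 in TTX and -0.52, -0.61 and -0.26 at 15 min (-0.79 ± 0.24). Shtn1, shootin, which links axon growth to actin flow, differed by -0.45 ± 0.23. Ctnna2, Gmfb and Shtn1 kept their separation under all 3 scaling alternatives; the other 9 overlapped after normexp correction. Gabra3, a subunit of the GABA-A receptor, read -1.92, -2.16 and -2.18 in TTX and -2.51, -2.85 and -3.08 at 15 min (-0.73 ± 0.26). Pcmtd2 differed by -1.19 ± 0.39, but the W15 arrays ran from -6.29 to -4.70, and on slide 1 alone the difference was -0.58. Among features without a symbol, TC524241 (-0.79 ± 0.25), ENSRNOT00000008889 (-0.86 ± 0.19) and BF550442 (-0.72 ± 0.36) had the widest gaps downward.

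**Figure D5:**
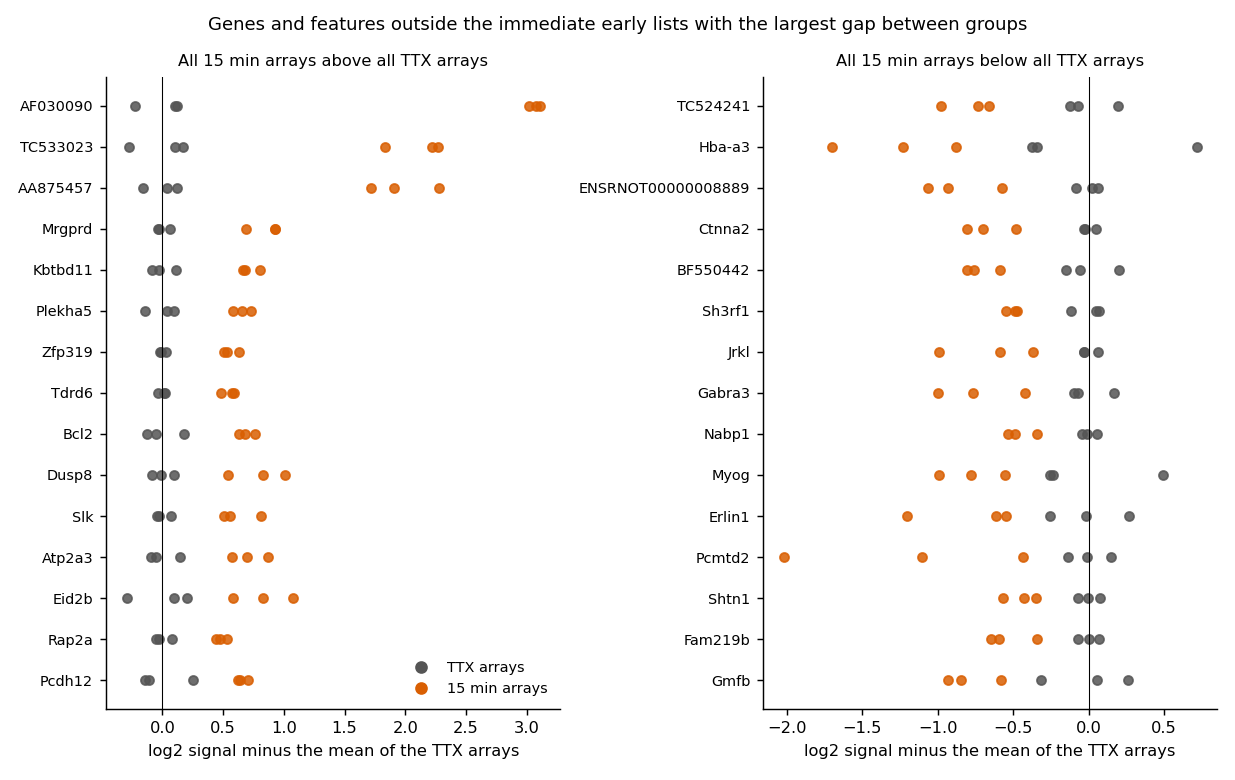
Signal of each TTX array (grey) and W15 array (orange) minus the mean of the TTX arrays (log2, horizontal axis) for the 15 genes and features per direction with the widest gap outside the immediate early lists. The 3 features without a symbol on the left stand at 1.97 to 3.07 on average, and the genes with a symbol at 0.48 to 0.85.

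Both measured adult globins had lower values at 15 min, though neither passed the test and both overlapped after normexp correction. Hba-a3, an alpha globin, read -0.91, -1.97 and -2.01 in TTX and -2.51, -3.33 and -2.86 at 15 min (-1.27 ± 0.32), and Hbb-b1, a beta globin named after its values were seen, read -3.33, -5.40 and -4.38 against -6.38, -7.83 and -6.58 (-2.56 ± 0.52), with 2 of the W15 arrays well above background. The highest TTX array in both was replicate 1, and on slide 1 alone the differences were -1.95 and -3.25. Other erythroid genes, also chosen after the globins were seen, had differences near or above 0. Of the 11 measured erythroid genes, globins included, 9 differences were positive, 2 genes (Alas2 and Gypc) were separated upward and 2 (the globins) downward. Without scaling Alas2 and Gypc overlapped. Alas2 differed by 0.49, Ahsp by 0.24, Slc4a1 by 0.06 and Klf1 by 0.06.

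On slide 1 alone, the slide that holds both groups, Fos differed by 4.86, Junb by 3.07, Egr1 by 2.26, Egr4 by 2.03 and Gadd45g by 1.26, with 1 array per group and no test. Npas4, below background in TTX, differed there by 4.97 against 5.70 over all arrays. Arc differed there by 1.92, Egr2 by 1.42 and Ier2 by 1.05. Which genes passed depended on the processing and the arrays. After normexp background correction Egr1 and Fos alone were called; without TTX replicate 2 or without W15 replicate 2 the called genes were Fos and Npas4 alone, and without TTX replicate 3 they were Egr1, Fos and Npas4. Without W15 replicate 3, 2 features were called lower, XM_235791 and RGD1561109_predicted, whose W15 arrays read -0.17, -0.03 and 1.78, and -9.19, -8.73 and -6.88. Within 100 kb of the probes of the called genes and Arc lay 56 other features, 25 of them near Junb and 0 near Fos or Gadd45g. Of the 56, 8 were separated upward and 1 downward, with differences from -0.26 to 0.53. Over all genes the shares were 10.1% and 3.66%.

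No feedback or second-wave gene on the lists was called at 15 min. Of 13 ERK feedback genes, 3 (23.1%) were separated upward (Dusp1, Dusp4 and Dusp7) and 1 (7.69%) downward (Spred1), with a median of 0.16; over all genes the shares were 10.1% and 3.66% and the median 0.05. Without scaling the counts were 0 and 1, with quantile scaling 1 and 1 and with normexp correction 3 and 0. Over all genes the shares were 0.667% higher and 12.1% lower without scaling. They were 7.97% and 5.59% with quantile scaling and 11.3% and 3.40% with normexp. Dusp6, a phosphatase of ERK, read 1.57, 1.56 and 2.05 in TTX and 2.32, 1.61 and 2.41 at 15 min and overlapped (0.38 ± 0.23). Of 13 genes of cAMP and CREB feedback, 1 (7.69%) was separated upward, Pde1a (0.36), and none downward; the counts were 2 and 1 with normexp and 0 and 3 without scaling. Sik1, a kinase that restrains CREB coactivators, differed by -0.43 with overlap, and its W15 arrays all lay below the TTX arrays with normexp and without scaling. Among 22 late-response genes, 2 (9.09%) were separated upward and 3 (13.6%) downward, with a median of -0.10; the counts were 2 and 1 with normexp, 2 and 4 with quantile scaling and 0 and 4 without scaling. Inhba, the activin A subunit, differed by 0.44 ± 0.18, and Acvr1c, an activin type receptor, by -0.79 ± 0.27 (adjusted p = 0.997 for both); Inhba overlapped without scaling and Acvr1c with normexp.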

How the data were processed

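Total RNA was hybridised as Cy3-labelled cRNA to single-colour Agilent arrays (design 014879). Per the file headers, Feature Extraction 9.5.3.1 made the scanner files; the submitters' processing notes give 9.5. The deposited values are spot intensities; per the file headers the processed signal is background-subtracted and not scaled between arrays. Control spots were left out, outlier spots (49 to 111 per array) set to missing, and each log2 signal was taken relative to the 75th percentile of its array's rat probes. A probe stayed if all 3 arrays of some group put it well above background and at most 1 array lacked it (30322 of 41012), and the brightest stood for its gene. Symbols came from RefSeq (GRCr8), positions from the array files (rn3); 20061 probes had a symbol. All 9 arrays were fitted with limma 3.58.1 (R 4.3.3) with a mean per group, and W15 minus TTX was tested with Benjamini-Hochberg adjustment over all genes. The fit was tested on simulated data. With 3 against 3 arrays an exact permutation test cannot give a p under 0.1. For a group below background, the denominator of the fold was the lowest signal flagged well above background on each array, averaged over its arrays. The labels give replicate numbers without a meaning. Deviations of same-numbered TTX and W15 arrays from their group means correlated across genes at 0.29, 0.39 and 0.23. For TTX and W45 the values were 0.26, 0.37 and 0.12, and for W15 and W45 0.06, 0.18 and 0.15. The main fit did not pair the arrays. A pairing by number, which rests on these data and not on the labels, entered only the replicate block alternative. The members, 31 gene lists and tests were chosen with earlier results of these data known, and 2 more lists (erythroid and ania transcripts) after their values were seen. Named were the called genes, 18 fixed genes, the 12 genes per direction with a symbol and the 3 without that had the widest gap, and up to 4 genes per list. The alternatives were background correction, scaling, filters, probe choice, spread, slide, replicate block and leaving out arrays.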

Additional observations from a re-analysis of the deposited data

How the results depend on the processing

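The 9 fits that each left out 1 array called 2 to 8 genes higher and 0 to 2 lower, and the 6 that left out a TTX or W15 array gave 3580 to 5765 genes separated upward and 1311 to 2931 downward, where fewer arrays make separation easier. Of 6 genes called higher, 2 were left after normexp correction (Egr1 and Fos) and 0 with slide as a fixed block, and 10 were called with the trended, robust spread. With only the 6 arrays compared 9 were called, all 6 among them. Slide as a random block left the 6 calls unchanged. The count of genes separated upward was 172 without scaling and 4084 without the filter on dim probes; downward it was 3119 without scaling and 1441 with quantile scaling. With the replicate block limma called 5 genes higher and 0 lower, and apart from Gadd45g it changed no call. Over 21 alternatives with a test, Fos was called in 20, Egr1 in 18, Egr4 and Junb in 16 and Gadd45g in 12; Npas4 was called in 18 of 20. After normexp correction Sh3rf1 (0.50), Myog (0.37) and Pcmtd2 (0.0023) reversed direction; the cause was not tested. Dim probes and 3 arrays per group limit what could be called, and the fold of a gene below background depends on the limit used.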

Other observations

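Genes of protein synthesis and respiration had small differences. Of 40 cytosolic ribosomal protein genes, none was called, 11 (27.5%) had all W15 arrays above all TTX arrays and none all below, beside 10.1% and 3.66% of all genes; 34 differences were positive, with a median of 0.09 against 0.05 for all genes. Rps15 read 2.53, 2.80 and 2.96 in TTX and 3.29, 3.43 and 3.09 at 15 min (0.51 ± 0.18). The split depended on the scaling. With quantile scaling 6 were up and 2 down, beside 7.97% and 5.59% of all genes. With normexp the counts were 7 and 2, beside 11.3% and 3.40%. Without scaling they were 0 and 2, beside 0.667% and 12.1%. Of 30 genes of oxidative phosphorylation, 6 (20%) were separated upward and 1 (3.33%) downward, beside 10.1% and 3.66% of all genes. The counts were 2 and 1 with quantile scaling, and 0 and 2 both with normexp and without scaling.

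Of 17 genes of polymerase pausing and release, 0 were separated in either direction, with a median of -0.01 (0 and 3 without scaling, 0 and 1 with normexp). Over all genes the shares separated upward and downward were 10.1% and 3.66%. They were 0.667% and 12.1% without scaling and 11.3% and 3.40% with normexp. Of 18 heat shock genes 1 (5.56%) was separated upward and 1 downward (0 and 2 without scaling), Hsph1 at -0.52 ± 0.24 with 1 W15 array missing, and Hspa1a, the inducible chaperone, differed by -0.15. Of 10 early inflammatory genes 2 (20%) were separated upward, Cxcl1 at 0.61 ± 0.36 and Nfkbia at 0.21, and none downward. Cxcl1 overlapped under all 3 scaling alternatives and Nfkbia without scaling, where the counts were 0 and 1. Of 23 genes of vesicle release, 3 (13.0%) were separated upward (Bsn, Unc13a and Sv2a) and 1 (4.35%) downward (Syt4, -0.50), beside 10.1% and 3.66% of all genes; without scaling the counts were 0 and 1. None of these lists held a called gene by limma.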
